A study of Sus scrofa with 9 samples.

Results

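TAC1, CCK, PRL, HTR1F, EDNRB, P2RY6 and CCR4 are 7 genes for peptide ligands and for receptors of nerve, endocrine and immune cells that carried few or no reads in control pig myoblasts and many in cells with human DUX4, pig DUXC or both. They were chosen by symbol for these levels, from a count table of 27339 genes. The 3 ligand genes encode secreted peptide precursors or a hormone, and the 4 receptor genes encode G protein coupled receptors. Messenger RNA was sequenced from primary myoblasts of the Göttingen minipig, the dividing precursor cells of muscle. The cells carried a doxycycline-inducible transgene: human DUX4 in 3 libraries, pig DUXC in 3 others, and GFP, the control, in the remaining 3. All 9 samples received 1 µg/mL doxycycline, the inducer, for 16 h before harvest, so the drug is shared by every group. The labels give neither the promoter of each transgene, nor the number of cell clones, nor whether libraries of 1 group were separate cultures. Each p-value therefore reflects spread among libraries that may be technical.

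DUX4 and DUXC are double homeobox transcription factors. DUX4 acts in the early human embryo, and its unwanted activity in muscle is the cause of facioscapulohumeral dystrophy. Neuropeptides such as substance P and cholecystokinin are cut from larger precursors, and like prolactin they are stored in granules and released by neurons or gland cells, and they act on receptors at the surface of other cells. G protein coupled receptors pass the signal to G proteins, which change cyclic AMP or calcium inside the cell. None of the 7 genes is known as a marker of myoblasts.

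Levels are normalised read counts in CPM, the share of a library's reads scaled to a common total, and a gene without a count in a group is below 0.0243 CPM with DUX4, 0.0252 CPM with DUXC and 0.0253 CPM with GFP, the level of 3 counts over the 3 libraries of the group. Total counts were 39842081 to 44420895 in DUX4 libraries, 36580573 to 38971217 in DUXC libraries and 39979602 to 42362395 in GFP libraries. All 7 genes were among the 15956 with enough counts to be tested. PRL, HTR1F and CCR4 passed only through the DUXC libraries, in which they are high. TAC1, CCK, EDNRB and P2RY6 were also tested in a fit of DUXC and GFP libraries alone, without the DUX4 libraries. In that fit TAC1 and CCK passed only through the DUXC libraries, in which they are higher. EDNRB and P2RY6 were higher in the GFP libraries. Of 6 myoblast markers only DES and ITGA7 reached 1 CPM with GFP, and the 6 together summed to 13.6 to 14.7 CPM there, while 6 fibroblast and matrix genes summed to 49473 to 52580 CPM. The reads come from bulk cultures, so a few cells with much RNA of a gene and many cells with little cannot be told apart.

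TAC1 encodes the precursor of substance P and neurokinin A, peptides of sensory neurons, and lies on chromosome 9, 77197403 to 77206529 (Sscrofa11.1). It had 1635, 2009 and 1514 counts with DUX4, 97, 114 and 117 with DUXC and none with GFP. In CPM these were 40.2, 46.1 and 38.8 with DUX4 and on average 2.76 ± 0.240 with DUXC (SD, n = 3). Every library with either factor stood above every GFP library, and the DUX4 libraries stood above the DUXC libraries. Against GFP the level was at least 1657-fold higher with DUX4 and at least 109-fold higher with DUXC.

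CCK encodes cholecystokinin, a gut hormone that is also a brain neuropeptide (chromosome 13, 25940674 to 25945879). It had 511, 525 and 525 counts with DUX4, 18, 18 and 14 with DUXC and 6, 9 and 1 with GFP. In CPM the means were 12.7 ± 0.715, 0.421 ± 0.0567 and 0.135 ± 0.103 with DUX4, DUXC and GFP (SD, n = 3 each), and no 2 of the groups overlapped. The ratio to GFP was 94.0 with DUX4 (95% counting interval 57.7 to 165) and 3.12 with DUXC (1.75 to 5.88), and such intervals cover counting error only. Without GFP replicate 2, which held 9 of the 16 GFP counts, the fitted log2 fold changes were 7.13 with DUX4 and 2.22 with DUXC, against 6.52 and 1.62 with all libraries.

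PRL encodes prolactin, the pituitary hormone of lactation (chromosome 7, 17451367 to 17463771), and it was high with the other factor. It had 0, 0 and 1 counts with DUX4, 447, 543 and 477 with DUXC and 3, 3 and 1 with GFP. The DUXC libraries, at 11.5, 13.3 and 12.2 CPM, stood far above all others. The DUX4 and GFP libraries were separate by almost nothing, since each group held a library with 1 count, at 0.0256 CPM with DUX4 and 0.0257 CPM with GFP. The ratio of DUXC to GFP was 210 (101 to 522). The ratio of DUX4 to GFP was 0.138 (0.00305 to 1.07), and the fitted log2 fold change was -2.47, or -4.32 without DUX4 replicate 3, which held the only count.

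HTR1F encodes a serotonin receptor of the inhibitory type, known from the brain (chromosome 13, 167951444 to 167987391). It had 1, 4 and 1 counts with DUX4, 567, 656 and 611 with DUXC and none with GFP. The DUXC libraries were at 14.6, 16.1 and 15.6 CPM, far above every other library. The level with DUXC was at least 611-fold that with GFP. The 6 counts with DUX4 correspond to 0.0473 ± 0.0385 CPM (SD, n = 3) and to a level at least 1.93-fold that with GFP.

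CCR4 encodes a chemokine receptor of T helper cells (chromosome 13, 18860596 to 18865987). It had no count with DUX4, 443, 516 and 444 counts with DUXC and a single count in 1 GFP library. The DUXC libraries, at 11.4, 12.6 and 11.3 CPM, were separate from both other groups. Its ratio of DUXC to GFP was 1402, with a wide interval of 251 to 55430 because the control rests on that 1 count. Of the 7 genes it was the only one without any count in DUX4 libraries.

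EDNRB encodes the endothelin B receptor, found in endothelium and in neural crest derivatives such as melanocytes (chromosome 11, 50073300 to 50102879). It had 3.42, 3.26 and 3.20 CPM with DUX4, 0.103, 0.0734 and 0.255 CPM with DUXC and 0.343, 0.514 and 0.308 CPM with GFP. All DUX4 libraries were above the GFP libraries and all DUXC libraries below them. The ratio to GFP was 8.51 with DUX4 (6.26 to 11.8) and 0.369 with DUXC (0.199 to 0.657), from 17 counts with DUXC against 46 with GFP. Without DUXC replicate 3 the fitted log2 fold change with DUXC was -2.10, against -1.42 with all libraries.

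P2RY6 encodes a receptor for the nucleotide UDP, known from macrophages and epithelia (chromosome 9, 7708452 to 7759721). It had 6.17, 6.36 and 6.59 CPM with DUX4, 0.155, 0.318 and 0.280 CPM with DUXC and 0.856, 0.616 and 0.719 CPM with GFP. As for EDNRB, the DUX4 libraries lay above the GFP libraries and the DUXC libraries below them. The P2RY6 ratio to GFP was 8.69 with DUX4, or 3.12 on the log2 scale (2.80 to 3.46). With DUXC it was 0.345 (0.220 to 0.527), from 30 counts with DUXC against 87 with GFP. P2RY6 overlaps the non-coding gene LOC110255395, which had 13 counts over the 3 DUX4 libraries and none elsewhere.

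**Figure D1:**
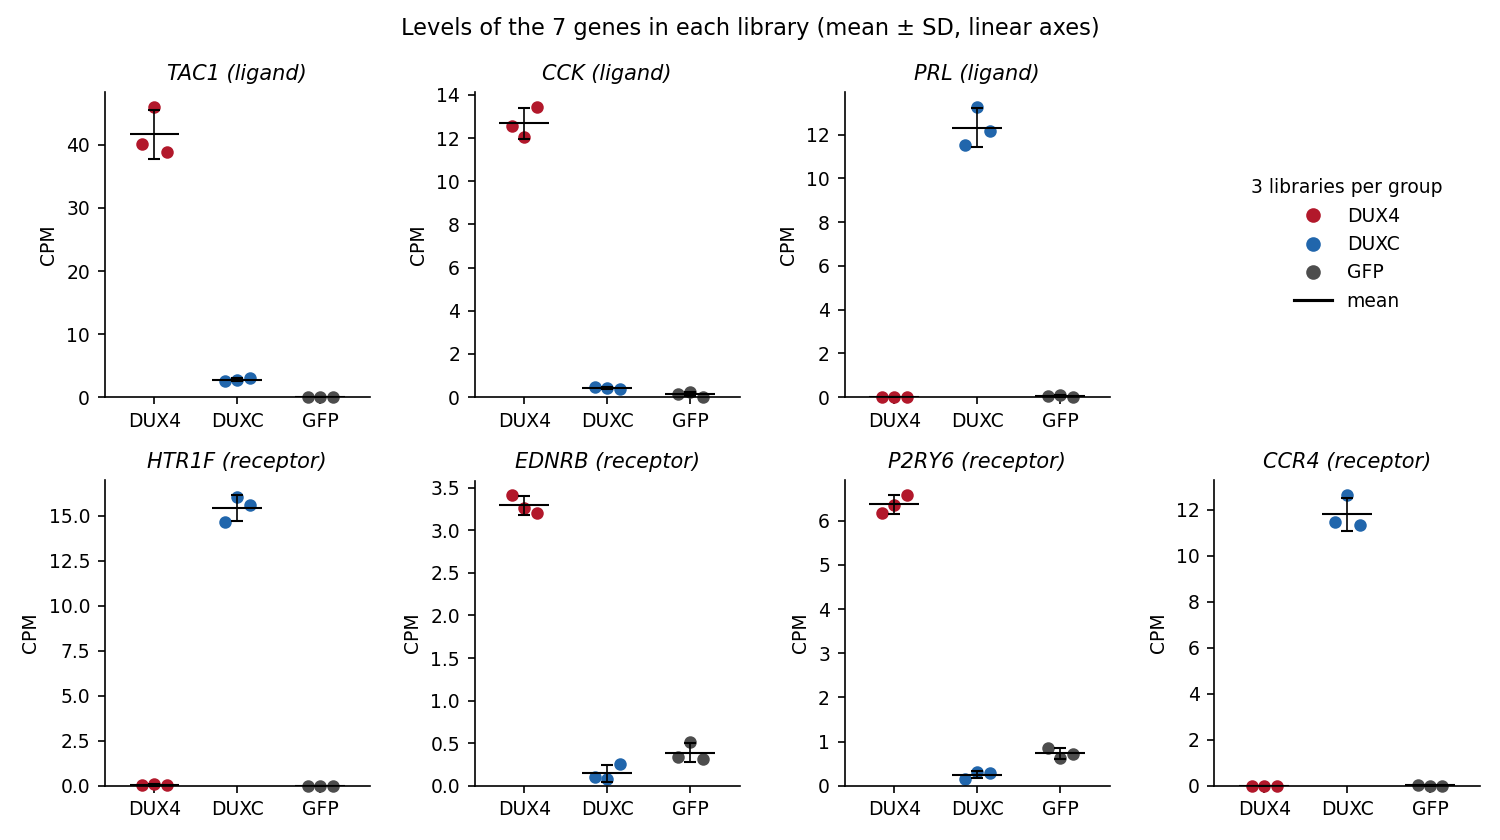
Levels of the 7 genes in CPM (linear vertical axes, 1 scale per gene) in the 3 DUX4, 3 DUXC and 3 GFP libraries; points are libraries, horizontal lines means and bars SDs. TAC1, CCK, EDNRB and P2RY6 are high with DUX4 (means of 41.7, 12.7, 3.29 and 6.37 CPM) and PRL, HTR1F and CCR4 with DUXC (12.3, 15.4 and 11.8 CPM).

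The 7 genes thus formed a DUX4 set of 4 and a DUXC set of 3, and ligands and receptors occurred in both sets. Of the sum of a gene's 3 group means, DUX4 held 93.8% for TAC1, 95.8% for CCK, 86.1% for EDNRB and 86.7% for P2RY6. DUXC held 99.5% for PRL, 99.7% for HTR1F and 99.9% for CCR4. Libraries of the group in which a gene was high agreed closely: the highest was 1.07 times the lowest for EDNRB and P2RY6 and 1.19 times the lowest for TAC1, the widest of the 7.

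By fitted values 5 of the 7 genes were at least 2-fold higher with DUX4 than with GFP, where 12.1% of all tested genes were, HTR1F with its 6 counts among them. Fitted values of PRL and CCR4 were at least 2-fold lower (5.76% of all tested genes), but these rest on 1 count against 7 and on 0 against 1, and CCR4 allows no fold. With DUXC 5 of 7 were at least 2-fold higher and 2 at least 2-fold lower, where 21.3% and 8.06% of all tested genes were. Libraries were fully separate for 6 of 7 genes with DUX4 against GFP, all but CCR4 (67.0% of all tested genes) and for 7 of 7 with DUXC against GFP (83.5%). These contrasts chose the genes, so the counts describe them and carry no test. Both contrasts use the same GFP libraries.

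The DUX4 and DUXC libraries also served to choose the genes, and a gene on with only 1 factor must differ between them, so the difference between the factors is a description here too, with no test. In the fit over all genes, 4 of the 7 were called higher and 3 lower with DUX4 than with DUXC, where 40.8% and 41.6% of all tested genes were, 82.4% in all. The libraries were fully separate for 7 of 7 genes, and for 83.0% of all tested genes. Nothing is read from these counts. TAC1, at 41.7 ± 3.86 CPM with DUX4 and 2.76 ± 0.240 CPM with DUXC (SD, n = 3 each), had a log2 difference of 3.92 ± 0.08 (SE), the smallest of the 4. CCK had 4.90 ± 0.15 and P2RY6 4.64 ± 0.19 on the same scale. EDNRB had 4.49 ± 0.26, and 5.18 without DUXC replicate 3, the library with 10 of its 17 DUXC counts.

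In the other direction HTR1F had a log2 difference of -8.22 ± 0.20 (SE), from 6 counts with DUX4 and 1834 with DUXC, and -9.08 without DUX4 replicate 2, which held 4 of the 6. PRL was lower with DUX4 by a ratio of 1522 (interval 273 to 60150), resting on the 1 count with DUX4. CCR4, without a count with DUX4, was at least 485-fold lower. The median absolute log2 difference was 4.90 over the 7 genes and 0.60 over all tested genes.

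**Figure D2:**
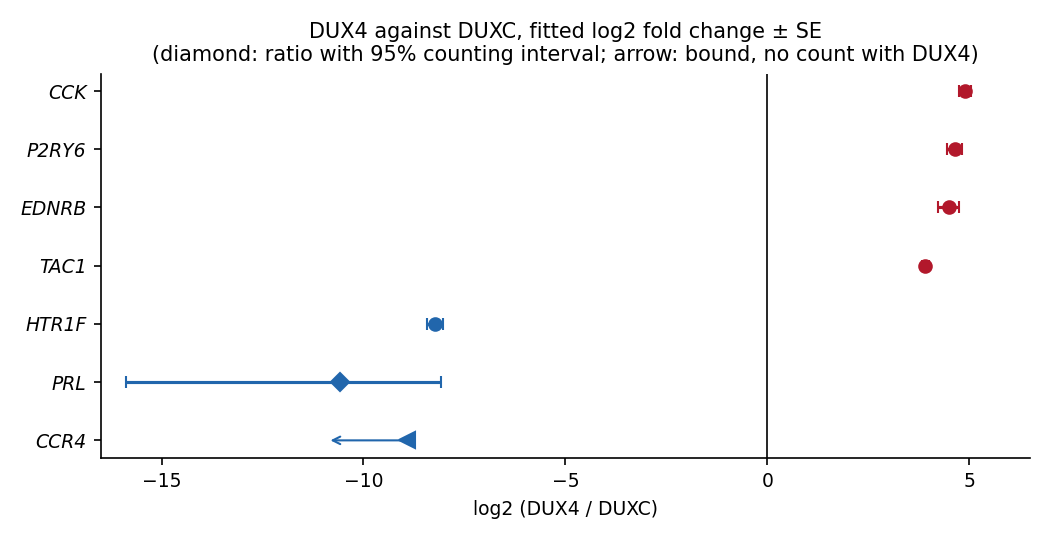
Difference between DUX4 and DUXC libraries for the 7 genes on the log2 scale (horizontal axis), as fitted values with SE bars; PRL is drawn as a ratio with its 95% counting interval and CCR4 as a bound with an arrow. CCK, P2RY6, EDNRB and TAC1 lie at 3.92 to 4.90, while HTR1F lies at -8.22, PRL at -10.57 and CCR4 at or below -8.92.

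The receptors through which the 3 ligands act were scarce in every group. Of 6 receptor genes 4 were tested, and TACR3 and CCKAR rose with both factors. With DUX4 2 rose and PRLR fell, where 32.9% and 31.9% of all tested genes rose and fell. With DUXC 2 rose and none fell, where 40.2% and 42.3% did. The median log2 fold change was 1.16 with DUX4 and 1.86 with DUXC, against 0.0035 and -0.031 over all tested genes. These counts and medians include TACR3, which had no GFP count, and CCKAR, which had 7. Both were tested only through groups in which they are higher, so the counts are not shares of the list. TACR2 was not tested, with 15 counts with DUX4, 6 with DUXC and 32 with GFP. Its ratio to GFP was 0.452 with DUX4 (0.227 to 0.859) and 0.187 with DUXC (0.0641 to 0.454). TACR1, the main receptor of substance P, had 0.274 ± 0.120 CPM with DUX4, 0.285 ± 0.0567 with DUXC and 0.168 ± 0.0474 with GFP and did not pass (adjusted p = 0.171 and 0.116).

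TACR3, the neurokinin B receptor, had 0.615, 0.688 and 0.769 CPM with DUX4, 1.86, 1.98 and 1.86 CPM with DUXC and no count with GFP. It rose at least 27.3-fold with DUX4 and at least 75.3-fold with DUXC. CCKAR, the gut type of cholecystokinin receptor, reached 0.186 ± 0.0746 CPM with DUX4 and 0.482 ± 0.121 CPM with DUXC, against 0.0595 ± 0.0398 CPM with GFP. The call of CCKAR with DUX4 (log2 1.61, adjusted p = 0.0220) was lost without DUX4 replicate 1 (0.132), GFP replicate 1 (0.110) or GFP replicate 3 (0.0597), where the log2 fold change was 1.24 to 1.53. The brain type CCKBR had a single count in 1 DUXC library and none in the other 8.

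PRLR, the prolactin receptor, had 0.0738, 0.0459 and 0.0513 CPM with DUX4, 0.671, 0.783 and 0.841 CPM with DUXC and 0.954, 0.847 and 1.00 CPM with GFP. It fell with DUX4, with a log2 fold change of -3.97 ± 0.41 (SE) from 7 counts against 111. With DUXC, where prolactin is high, PRLR did not pass (log2 -0.29 ± 0.24, adjusted p = 0.260). Between the factors PRLR was lower with DUX4 by 3.68 ± 0.42 on the log2 scale (adjusted p = 6.54e-11).

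On the ligand side of the 4 receptors, 10 of 18 genes were tested. With DUX4 5 rose and 2 fell, where 32.9% and 31.9% of all tested genes did, and the median was 0.48 on the log2 scale. With DUXC 7 rose and 3 fell, with a median of 0.74, where 40.2% of all tested genes rose and 42.3% fell. Between the factors 2 were higher and 7 lower with DUX4, where 40.8% and 41.6% of all tested genes were. TPH1 and MAOB, scarce with GFP, were tested only through groups in which they are higher, so these counts are not shares of the list.

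EDN1, the precursor of endothelin 1 and a ligand of EDNRB, had 3.79, 2.57 and 2.54 CPM with DUX4, a mean of 26.1 ± 0.995 CPM with DUXC and 0.979, 0.745 and 1.13 CPM with GFP. It rose with both, by log2 1.64 ± 0.17 with DUX4 and 4.78 ± 0.12 with DUXC, so the ligand was highest in the group in which EDNRB was lowest. EDN2 had 37 counts over the DUXC libraries and none elsewhere, below the filter for testing. ECE1, which cuts endothelin to its active form, fell to 26.4 ± 1.29 CPM with DUX4 and 28.8 ± 0.821 CPM with DUXC, against 108 ± 2.95 CPM with GFP. The small ECE1 difference between the factors (log2 -0.13, adjusted p = 0.00997) was lost without a filter on low counts and without DUX4 replicate 1 or 2.

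Genes of serotonin supply and breakdown moved with 1 or both factors. TPH1, the first enzyme of serotonin synthesis, had 0.131 ± 0.0429 CPM with DUX4, 1.31 ± 0.0689 CPM with DUXC and 0.0750 ± 0.0410 CPM with GFP. It rose with DUXC (log2 4.06 ± 0.37) and did not pass with DUX4 (adjusted p = 0.279). SLC6A4, the serotonin transporter, had 0.320, 0.390 and 0.256 CPM with DUX4, 3.28, 3.35 and 3.69 CPM with DUXC and 0.245, 0.231 and 0.180 CPM with GFP. It likewise rose with DUXC (log2 3.96 ± 0.23) and did not pass with DUX4 (adjusted p = 0.179). The difference between the factors passed for TPH1 and SLC6A4 (log2 -3.31 and -3.40). MAOA, which breaks serotonin down, fell with DUX4 and rose with DUXC (log2 -0.25 and 0.64). MAOB, a related enzyme, rose with both (log2 1.74 and 1.55), from 32 counts with DUX4 and 27 with DUXC against 9 with GFP. DDC, the second enzyme of the pathway, was not tested, with 4 counts with DUX4, 25 with DUXC and none with GFP.

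The genes of both chemokines that bind CCR4 had few counts. CCL22 had 1 count with DUX4, 10, 11 and 8 counts with DUXC and none with GFP, and CCL17 summed to 1, 7 and 3 counts in these groups. Neither passed the filter for testing. CCL22 was at least 9.66-fold higher with DUXC than with GFP, and its 3 DUXC libraries stood above all others. For P2RY6 no gene encodes the ligand itself, but ENTPD1 and ENTPD3 encode surface enzymes that break down nucleotides. ENTPD3 rose to 249 ± 6.59 CPM with DUX4 and fell to 57.5 ± 1.84 CPM with DUXC, against 173 ± 1.84 CPM with GFP, and ENTPD1 rose and fell likewise (log2 0.43 and -0.86). These are the directions in which P2RY6 stood with each factor.

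**Figure D3:**
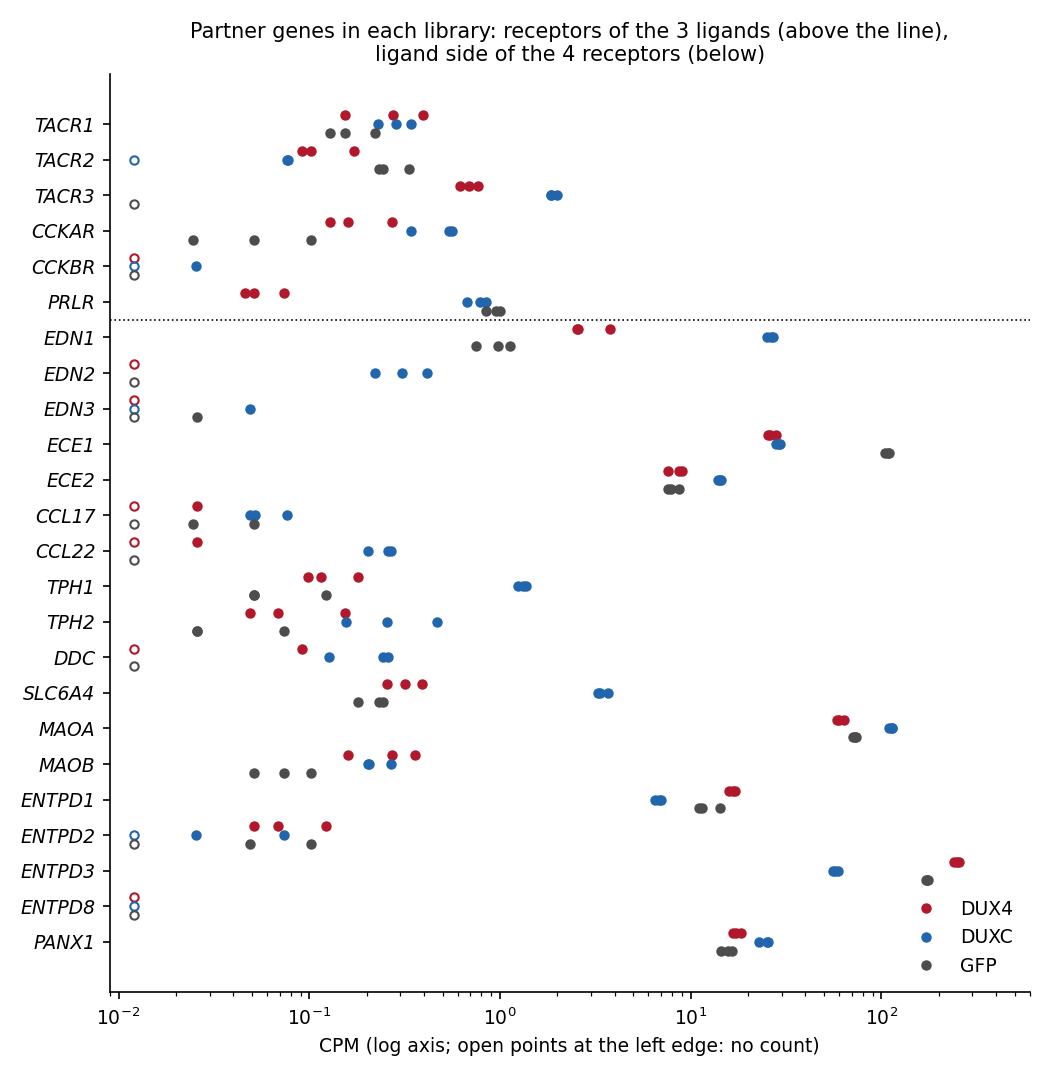
Levels in each library, in CPM on a log axis, of the genes for receptors of the 3 ligands (above the dotted line) and for the ligand side of the 4 receptors (below it), coloured by group, with open points for libraries without a count. EDN1, TPH1 and SLC6A4 are highest with DUXC, ECE1 is highest with GFP, and PRLR is lowest with DUX4.

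Genes that process and store peptides moved in both directions. Of 20 tested from 21, 9 rose and 8 fell with DUX4 (32.9% and 31.9% of all tested genes). With DUXC 7 rose and 7 fell (40.2% and 42.3% of all tested genes). The median log2 fold change was 0.32 with DUX4 and -0.015 with DUXC. MME, an enzyme that degrades substance P, rose with DUX4 to 149 ± 4.39 CPM and fell with DUXC to 21.8 ± 1.26 CPM, against 57.2 ± 1.61 CPM with GFP. PAM, which adds the terminal amide that substance P and cholecystokinin need, had the opposite directions, at 106 ± 0.977, 185 ± 3.06 and 138 ± 0.776 CPM with DUX4, DUXC and GFP.

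The granule proteins split as well. CHGB rose with DUX4 to 12.7 ± 0.966 CPM and with DUXC to 3.15 ± 0.401 CPM, against 0.970 ± 0.227 CPM with GFP, and CHGA rose with both (log2 4.10 and 5.06). SCG2, by contrast, fell to 162 ± 5.14 CPM with DUX4 and 192 ± 2.89 CPM with DUXC, against 1111 ± 41.8 CPM with GFP. CADPS2, a granule release factor, rose with DUX4 (log2 1.10) and fell a little with DUXC (log2 -0.29, lost at adjusted p = 0.0774 when scaled by library size alone). CADPS fell with DUX4 and rose with DUXC (log2 -0.45 and 0.25). RAB27A, which docks granules, rose with both (log2 0.73 and 2.02). QPCT rose with DUX4 and fell with DUXC (log2 0.44 and -1.44). PCSK1, a convertase that cuts prohormones in gland cells, did not pass with either factor (adjusted p = 0.332 and 0.0576), and PCSK2 had 4 counts with DUX4 and none in other groups.

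Relatives of the 4 receptors were mostly scarce: 13 of 30 were tested. With DUX4 4 rose and 5 fell (30.8% and 38.5%), where 32.9% and 31.9% of all tested genes did. With DUXC 6 rose and 7 fell (46.2% and 53.8%), where 40.2% and 42.3% did. The medians were 0.39 and -1.11 on the log2 scale. Among those that rose with DUXC, P2RY4 and CCR1 had almost no counts elsewhere and were tested only through the DUXC libraries. A relative that scarce with GFP enters the test only in this way, so these counts are not shares of the list. EDNRA, the other endothelin receptor, fell with both factors, at 9.96 ± 0.606 CPM with DUX4 and 12.9 ± 0.351 CPM with DUXC, against 32.4 ± 1.29 CPM with GFP. Thus EDNRA fell where EDNRB was higher with DUX4. The serotonin receptors HTR2A and HTR7 fell with both factors (log2 -1.30 and -0.71 with DUX4, -1.42 and -1.43 with DUXC). HTR1B, a close relative of HTR1F, rose with DUX4 to 14.1 ± 0.894 CPM and fell with DUXC to 4.39 ± 0.249 CPM, against 9.62 ± 0.784 CPM with GFP. HTR6 rose with both (log2 3.24 and 1.99).

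Among chemokine receptors, CCR7 of lymphocytes and dendritic cells had 0.0738, 0.0918 and 0.103 CPM with DUX4, 7.80, 7.34 and 6.73 CPM with DUXC and 0.269, 0.231 and 0.308 CPM with GFP. It fell by 1.56 ± 0.46 on the log2 scale with DUX4, with 11 counts, and rose by 4.74 ± 0.18 with DUXC. CCR1 had 6 counts with DUX4, which did not pass (adjusted p = 0.102), and 214 with DUXC, against 1 with GFP. Its ratio of DUXC to GFP was 214 (38.0 to 8488). Among nucleotide receptors, P2RY4 had 93 counts with DUXC and none elsewhere and rose at least 31.0-fold. P2RY2 rose with DUX4 and fell with DUXC (log2 0.43 and -1.11).

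The wider list of peptide hormones and neuropeptides held 63 genes of the table, of which 26 were tested. With DUX4 13 rose and 4 fell, where 32.9% and 31.9% of all tested genes did, and with DUXC 16 rose and 5 fell, where 40.2% and 42.3% did. The medians were 1.06 with DUX4, or 0.72 with GCG, which had no count with GFP, set at its bound, and 1.57 with DUXC. A gene with almost no reads in GFP libraries can enter the test only through a group in which it is higher, so these counts cannot be read as shares of the whole list.

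PTHLH, the parathyroid hormone related peptide, rose with both, to 33.0 ± 1.29 CPM with DUX4 and 107 ± 2.82 CPM with DUXC, against 1.33 ± 0.211 CPM with GFP. SST, somatostatin, an inhibitor of hormone release, had 92.6, 108 and 104 CPM with DUX4, 7.98, 8.89 and 7.31 CPM with DUXC and a mean of 10.7 ± 0.369 CPM with GFP. It rose with DUX4 and fell with DUXC (log2 3.25 and -0.41). ADCYAP1, the neuropeptide PACAP, had 0.221, 0.298 and 0.282 CPM with DUX4, 43.2, 48.3 and 45.6 CPM with DUXC and 0.0734, 0.103 and 0.0257 CPM with GFP. It rose with both (log2 1.94 ± 0.49 with DUX4 and 9.34 ± 0.14 with DUXC).

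APLN, apelin, rose with DUX4 to 47.0 ± 1.43 CPM and fell with DUXC to 3.63 ± 0.364 CPM, against 15.6 ± 0.333 CPM with GFP, and STC2 had the same directions (log2 1.17 and -1.63). VIP, a neuropeptide related to PACAP, did the reverse, at 0.355 ± 0.156, 4.35 ± 0.467 and 1.16 ± 0.105 CPM with DUX4, DUXC and GFP. ADM, adrenomedullin, rose with both (0.95 and 2.11). NPVF fell with DUX4 (log2 -3.30). PENK, the enkephalin precursor, fell by 0.26 on the log2 scale with DUX4 (adjusted p = 0.0341), a call lost in 7 of 17 alternatives, at adjusted p = 0.0544 to 0.114, among them both other scalings, DESeq2 and the fits without DUX4 replicate 1 or 3 or GFP replicate 2 or 3.

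Of the G proteins and effectors 29 of 33 were tested. With DUX4 4 rose and 17 fell, where 32.9% and 31.9% of all tested genes did, and with DUXC 7 rose and 18 fell, where 40.2% and 42.3% did. The medians were -0.29 and -0.51 on the log2 scale. GNAI2, an inhibitory G protein subunit of the kind that HTR1F and CCR4 use, fell with DUXC to 168 ± 5.18 CPM, against 380 ± 8.16 CPM with GFP. GNAI1 had the opposite direction and rose with DUXC (log2 0.43), while it fell with DUX4 (log2 -0.55). GNAZ and ADCY7 fell with both factors (log2 -0.39 and -0.36 with DUX4, -1.89 and -1.10 with DUXC), and GNA13 rose with DUXC (0.65). GNA14 fell with both, and ADCY8 rose with both, with DUXC only while replicate 2 was kept (log2 1.21, adjusted p = 0.00185, and without it log2 0.82, adjusted p = 0.0541).

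In the prolactin pathway, JAK2, the kinase bound to PRLR, rose to 39.7 ± 1.35 CPM with DUX4 and 67.1 ± 0.678 CPM with DUXC, against 32.7 ± 0.866 CPM with GFP. SOCS2, a feedback inhibitor, rose by a similar amount with both (log2 1.33 and 1.37). STAT5A, which carries the signal to the nucleus, fell with DUX4 (log2 -0.82) and did not pass with DUXC (adjusted p = 0.117), and it overlaps STAT5B. CISH, another feedback inhibitor, fell with DUX4 and rose with DUXC (log2 -1.08 and 1.86).

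**Figure D4:**
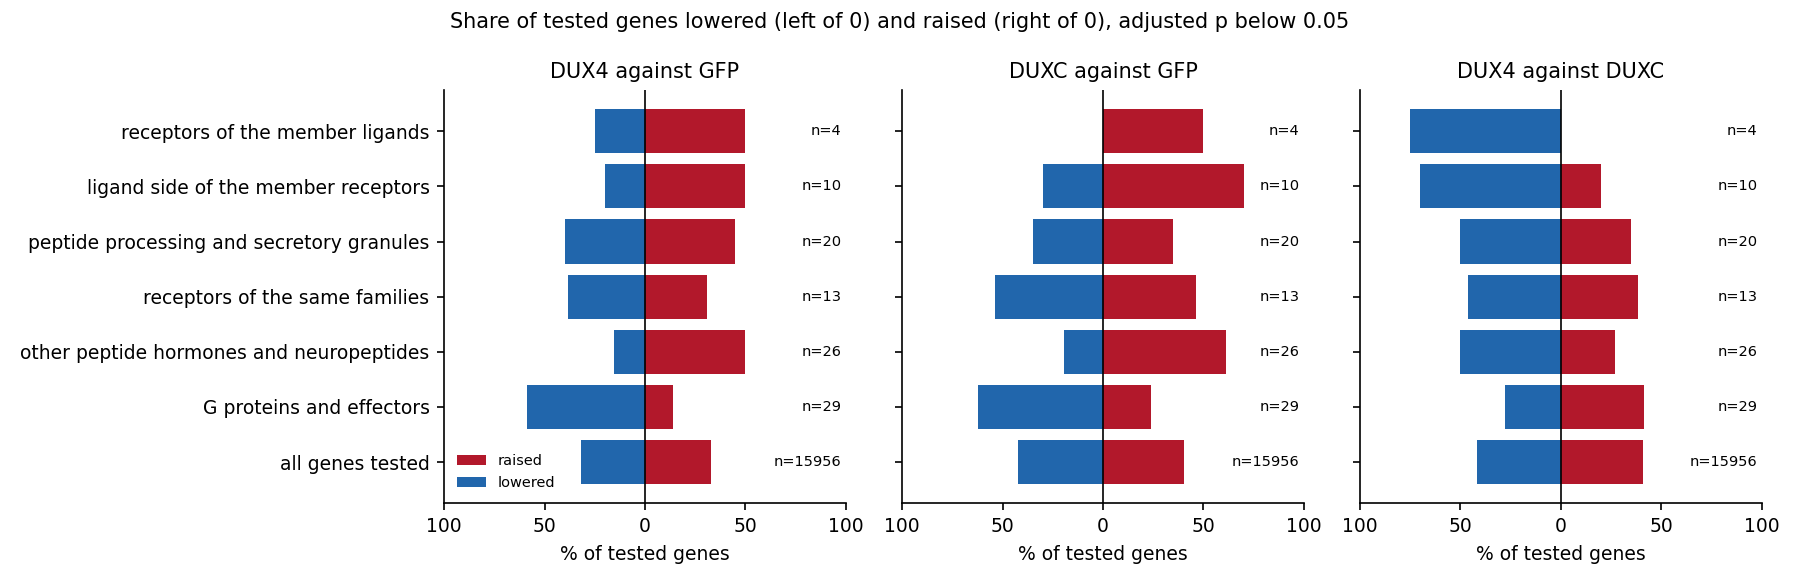
Percent of the tested genes of each list that fell (left of 0) and rose (right of 0) at an adjusted p below 0.05, for each comparison, with all tested genes in the bottom row; n is the number of tested genes. Other hormones and neuropeptides rose in 13 of 26 with DUX4 and 16 of 26 with DUXC, and G proteins and effectors fell in 17 and 18 of 29.

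Markers of cells in which the 7 genes are normally active were measured beside them. All 7 T cell markers were too scarce to test, and their sum was 0.148 to 0.367 CPM in DUX4 libraries, 0.245 to 0.594 CPM in DUXC libraries and 0.0513 to 0.0770 CPM in GFP libraries. CCR4 itself had 11.3 to 12.6 CPM with DUXC. Of 10 pituitary and endocrine markers, TSHB and GH1 had no count with DUX4 or GFP. Of the 6 tested, 4 rose with DUX4 and 6 with DUXC, where 32.9% and 40.2% of all tested genes rose. CHGA and CHGB led both times. INSM1 had no count with GFP and so was tested only through groups in which it is higher. No marker of this list reached 1 CPM with GFP. A marker with almost no reads there can enter the test only in this way, so these counts are not shares of the list. The sum of the 10 markers was 14.8 to 16.5 CPM with DUX4, 10.2 to 11.7 CPM with DUXC and 2.23 to 3.52 CPM with GFP. POU1F1, the pituitary factor that drives PRL in lactotrophs, had 7 counts with DUX4, 13 with DUXC and 16 with GFP.

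Neuron markers summed to 47.9 to 58.2 CPM with DUX4, 42.3 to 43.9 CPM with DUXC and 18.7 to 20.2 CPM with GFP, with SYT1 at no count in GFP libraries. Of the 7 tested, 4 rose and 1 fell with DUX4, where 32.9% and 31.9% of all tested genes did. With DUXC 4 rose and 2 fell, where 40.2% and 42.3% did. NEFL, NEFM and GAP43 rose with both factors, ELAVL4 with DUX4 and ELAVL3 with DUXC. STMN2 fell with both and SNAP25 with DUXC. SYT1 and RBFOX3 were not tested. Melanocyte and Schwann cell markers summed to 12.9 to 13.5 CPM with DUX4, 108 to 111 CPM with DUXC and 25.5 to 29.7 CPM with GFP. Of these MLANA and PMEL rose with both factors, most with DUXC (log2 5.99 and 6.03), and MITF fell with DUX4 and rose with DUXC (log2 -1.36 and 0.89). DCT rose with DUX4 (log2 2.90), did not pass with DUXC (adjusted p = 0.827) and was higher with DUX4 than with DUXC (log2 2.69). TYR and SOX10 were too scarce to test. Endothelial markers summed to 84.2 to 88.8, 74.6 to 78.8 and 58.0 to 61.9 CPM with DUX4, DUXC and GFP, most of it ERG. Its members differed in direction: ERG rose with DUX4 and fell with DUXC (log2 0.51 and -0.15), PECAM1 and KDR rose with both (0.61 and 5.28 with DUX4, 2.00 and 4.38 with DUXC), and TEK rose with DUXC (4.28). PECAM1 and TEK were lower with DUX4 than with DUXC (log2 -1.40 and -4.25). Macrophage markers summed to 13.8 to 15.9, 20.5 to 22.9 and 16.2 to 19.4 CPM with DUX4, DUXC and GFP, with CD14 the highest in each group. These too differed in direction: CSF1R and ITGAM fell with both factors, CD68 rose with both, SPI1 rose with DUX4 and CD14 rose with DUXC. The part of these markers in the levels of the 7 genes was not tested. Reads cannot be told apart from those of an overlapping gene for TACR3, SLC6A4, ENTPD3, CADPS2, HTR2A, CCR1, ADCYAP1, NPVF, GNA14, GNAZ, ADCY8, PCSK1, CCL17, PMEL, PECAM1, TEK, RELT, GLB1 and FAM25A where the counting ignored strand or the genes share one.

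The 7 genes lie on 4 chromosomes and do not adjoin each other. CCR4 and CCK are 7.07 Mb apart on chromosome 13, HTR1F lies more than 100 Mb from both, and TAC1 and P2RY6 are 69.4 Mb apart on chromosome 9. Of the 3 nearest genes of the table on each side of each gene, 42 in all, 27 were tested. With DUX4 11 rose and 8 fell, or 40.7% and 29.6%, where 32.9% and 31.9% of all tested genes did. With DUXC 13 rose and 7 fell, or 48.1% and 25.9%, where 40.2% and 42.3% did. Changes of at least 2-fold numbered 2 with DUX4 and 9 with DUXC, or 7.41% and 33.3%, where 15.7% and 29.3% of all tested genes changed so far.

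TRAK1, 5.90 kb from CCK, had log2 fold changes of -0.11 with DUX4 and -0.05 with DUXC, and GLB1, 12.4 kb from CCR4, had -0.16 and -0.66. P2RY2, a nucleotide receptor gene 13.4 kb from P2RY6, stood higher with DUX4 and lower with DUXC, like P2RY6, at 39.5 ± 0.473, 13.5 ± 0.775 and 29.2 ± 1.48 CPM with DUX4, DUXC and GFP. TRIM71, 24.8 kb from CCR4, rose with both and had 28 counts with DUX4, 50 with DUXC and 2 with GFP, a ratio to GFP of 13.5 with DUX4 (3.40 to 117). ASNS, 112 kb from TAC1, rose with DUX4 (log2 0.55) and fell with DUXC (log2 -0.91). RELT, 73.7 kb from P2RY6, rose with both (log2 1.87 and 2.03). The other tested neighbours that changed at least 2-fold all rose with DUXC. They were DLX5 and SDHAF3 by TAC1 (log2 3.47 and 2.02), SLAIN1 by EDNRB (2.04), SOX4 and LOC110261655 by PRL (1.62 and 1.13) and ZNF654 by HTR1F (1.41).

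**Figure D5:**
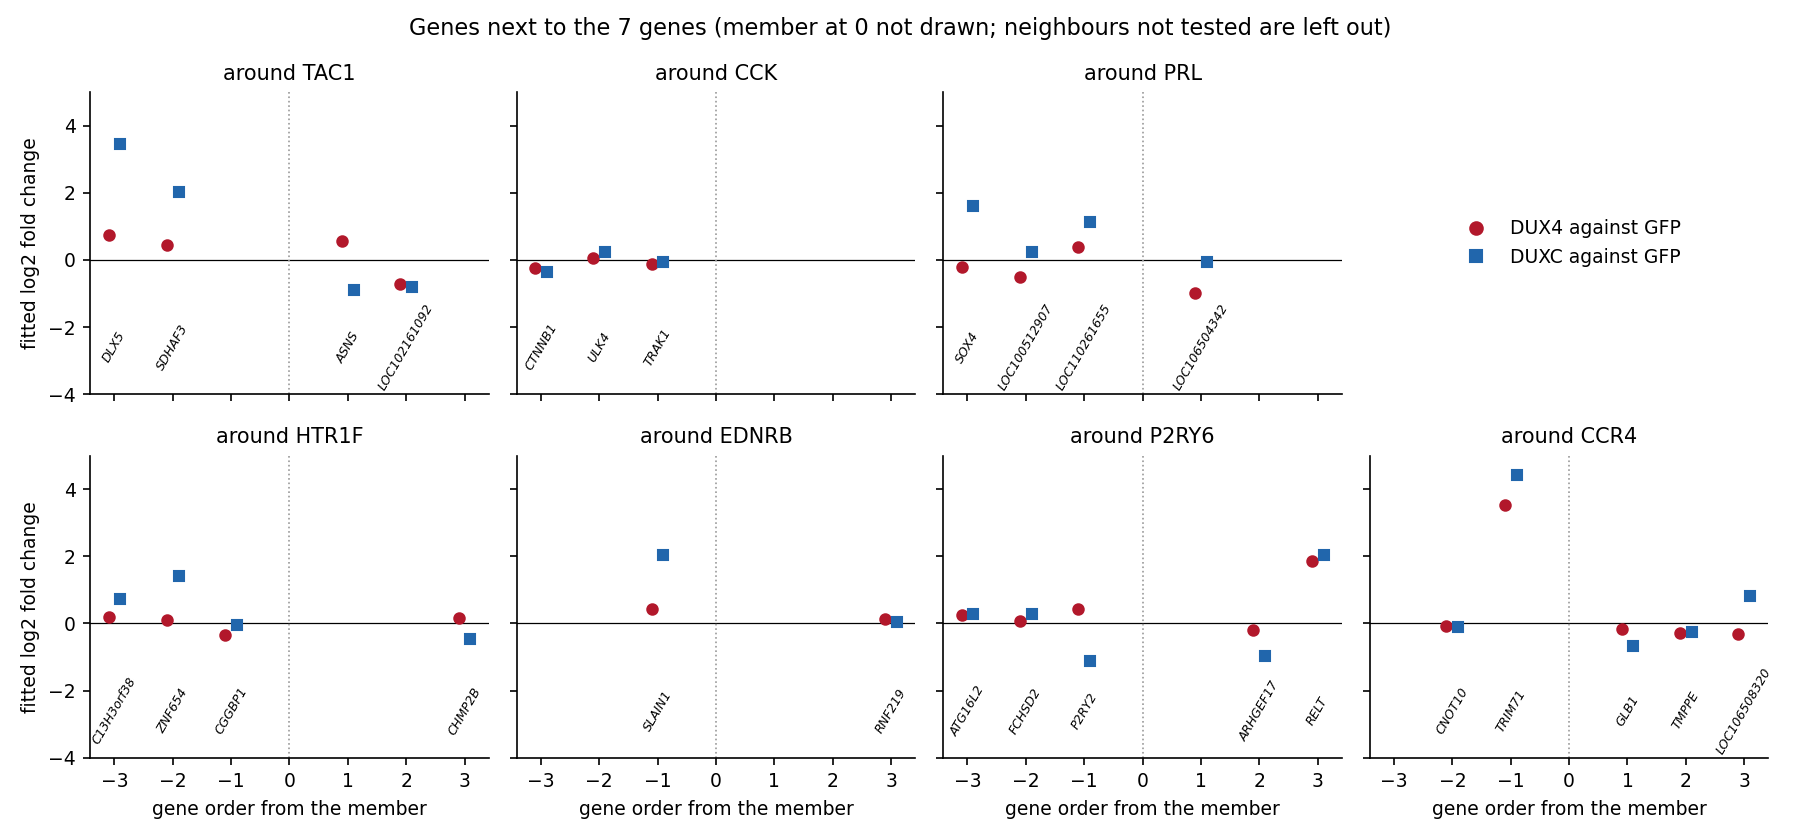
Fitted log2 fold change against GFP (vertical axis) of the tested genes among the 3 nearest on each side of each of the 7 genes, by gene order (horizontal axis), with circles for DUX4 and squares for DUXC. P2RY2 beside P2RY6 lies at 0.43 and -1.11, and CGGBP1 beside HTR1F at -0.34 and -0.05.

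For each of the 7 genes, the 2 named genes with the most similar profile were taken by the root mean square difference of log2 CPM over the 9 libraries, each gene centred on its own mean. KLLN was nearest to HTR1F and to CCR4, at differences of 0.310 and 0.317, with 0.0555 ± 0.0335 CPM with DUX4, 17.6 ± 0.217 with DUXC and 0.0334 ± 0.0134 with GFP. ADCYAP1 was second for HTR1F (0.402) and ST8SIA6 second for CCR4 (0.424). VEGFD, a lymphatic growth factor, and IBSP, a bone matrix protein, were nearest to PRL, at 0.446 and 0.519. CCR4 and PRL were themselves 0.441 apart.

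In the DUX4 set, FAM25A and GP1BA, a platelet receptor subunit, were nearest to EDNRB (0.250 and 0.399). SEMA7A, a membrane-bound semaphorin, and SLA-DRB1, a class II antigen presentation gene, were nearest to P2RY6 (0.282 and 0.358). SEMA7A had 65.5 ± 3.98 CPM with DUX4, 3.94 ± 0.275 with DUXC and 7.79 ± 0.693 with GFP, so it repeats the order of P2RY6 at a higher read count. MT-2B and RNF17 were nearest to CCK (0.791 and 0.834). TAC1 had no close match: FUT9 and MT-2B differed from it by 1.46 and 1.66, and CCK by 1.91.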

How the data were processed

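The authors deposited whole-number read counts for each gene, with 1 column per library and no normalization. Per the submitters' processing notes, CASAVA 1.9, Trim Galore and featureCounts were used with build Sscrofa11.1, and the column headers name Subread. The library kit is stranded, per the labels, but the sources used here do not state the strand setting of the counting or the annotation release, so genes that overlap may share reads. Positions come from RefSeq for Sscrofa11.1, and no sequence was used.

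Of 27339 genes, 15956 passed filterByExpr by group and 11383 did not. Counts were scaled with TMM and fitted for all 9 libraries by group in edgeR 4.0.16 (R 4.3.3; quasi-likelihood, robust, two-sided F test). P-values were adjusted by Benjamini-Hochberg over all tested genes in each of 3 comparisons, with a threshold of 0.05. The SE is the log2 fold change over the square root of F. Against a group without a count, a fold is a bound against 3 counts over the group. With 1 to 3 counts it is a ratio with an exact 95% interval, and other ratios of the 7 genes are of pooled normalised counts. Permutation over 3 and 3 libraries has a smallest exact p of 0.1, so no such test is used. The pipeline was tested on simulated data.

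The 7 genes and all lists were chosen with earlier results of these data known. Named beside the 7 are, per list and factor against GFP, up to 3 genes with the smallest p in each direction, the partner genes of the 7, and the 2 nearest profiles of each. Others were chosen after their values were seen: PCSK1, PCSK2, GCG, CISH, the neighbours and the markers. A gene scarce with GFP passes the filter only through a group in which it is higher. The alternatives were DESeq2 1.42.0 with its size factors, limma-voom (limma 3.58.1), other filters, other scaling, fits of 2 groups only, a replicate block and leaving out each library.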

Additional observations from a re-analysis of the deposited data

How the results depend on the processing

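The direction between DUX4 and DUXC was kept in the 17 alternatives. For a gene on with only 1 factor the choice of the 7 genes fixes that direction, so keeping it is no measure of stability. TAC1 and CCK stood above GFP with both factors, so the choice alone does not fix theirs, but the same libraries chose them. The number at least 2-fold above GFP was 4 or 5 with DUX4 and 5 with DUXC. It was 4 in the fit of DUX4 and GFP libraries alone, where HTR1F, PRL and CCR4 were not tested. The log2 difference between the factors ranged from 3.82 to 3.98 for TAC1, 4.80 to 4.98 for CCK, 4.17 to 5.18 for EDNRB and 4.40 to 4.85 for P2RY6, and from -11.95 to -9.46 for PRL, -9.08 to -7.91 for HTR1F and -11.96 to -9.92 for CCR4. Among all genes, 9574 to 10585 genes were called for DUX4 against GFP, 11529 to 14888 for DUXC against GFP and 11588 to 14499 between the factors. Of the list genes 63 to 79, 72 to 112 and 72 to 96 were called. Scaling by library size alone moved the median of all genes by 0.12 with DUXC against GFP and by -0.10 between the factors. Same-numbered libraries of the 3 groups had deviations correlated at -0.0258 to 0.0318, and 8 of 18 correlated best with their own number, so the numbers do not pair them. With the replicate block 10272, 13125 and 13094 genes were called, against 10341, 13165 and 13150. Levels near the floor limit CCR4, PRL and HTR1F with DUX4, and EDNRB with DUXC, which rest on 0, 1, 6 and 17 counts.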
